A study of Mus musculus with 20 samples.

Results

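Reactive glia were followed through 5 genes, Stat3, Socs3, Gfap, Serpina3n and C4b, in whole mouse retina. They were taken by symbol from the expression tables of postnatal day 2 (P2) and postnatal day 21 (P21). All 5 were among the 1497 genes of the P21 table, and 2 of them, Gfap and Socs3, were among the 566 genes of the P2 table; the other 3 were not analysed here at P2. Retinas of C57BL/6J mice came from 5 genotypes: wild type, CrxRip/+ and CrxRip/Rip (1 or 2 copies of Rip, an allele of Crx that acts dominantly; Crx is a homeobox factor of photoreceptors), Crx-/- (no Crx function) and Nrl-/- (no Nrl, the leucine zipper factor of rod fate). Each genotype had 2 samples at each age, each sample pooled from 2 retinas, which gives 20 samples in 10 groups.

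Müller cells, the radial glia of the retina, and the astrocytes of its inner surface respond to photoreceptor injury with a change of gene expression called gliosis. Cytokines of the interleukin 6 family act through the shared receptor subunit gp130 and Janus kinases to phosphorylate STAT3, a transcription factor that then enters the nucleus. SOCS3 is induced by this route and inhibits it at the receptor. GFAP is the intermediate filament protein whose rise in Müller cells is the classical sign of retinal gliosis, Serpina3n encodes a secreted serine protease inhibitor of reactive astrocytes, and C4b encodes complement component 4, which carries the classical complement cascade from C1 to C3.

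The proximal promoters are shown because STAT factors bind the palindrome TTCNNNGAA, and these genes are read here for whether they moved together. RefSeq promoter windows (GRCm38.p6) were found for 4 of the 5 genes, all but C4b, and 280 bases of each are given, 250 before the annotated transcript start and 30 from it onwards. The windows lie at chr11:100939511-100939790 (minus strand, Stat3), chr11:117969337-117969616 (minus strand, Socs3), chr11:102897171-102897450 (minus strand, Gfap) and chr12:104406458-104406737 (plus strand, Serpina3n). Capitals mark TTCNNNGAA, which reads the same on both strands.
Stat3: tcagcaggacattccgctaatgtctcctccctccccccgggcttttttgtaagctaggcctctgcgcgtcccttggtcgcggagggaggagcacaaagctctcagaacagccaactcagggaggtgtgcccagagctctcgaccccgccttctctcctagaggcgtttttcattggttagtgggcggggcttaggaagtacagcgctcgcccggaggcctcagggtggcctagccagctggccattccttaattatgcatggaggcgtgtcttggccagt
Socs3: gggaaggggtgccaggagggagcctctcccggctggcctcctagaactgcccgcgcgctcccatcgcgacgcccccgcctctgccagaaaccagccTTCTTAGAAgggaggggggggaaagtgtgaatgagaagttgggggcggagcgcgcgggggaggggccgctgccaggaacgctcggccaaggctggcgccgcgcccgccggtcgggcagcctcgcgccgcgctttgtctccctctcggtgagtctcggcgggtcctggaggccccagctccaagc
Gfap: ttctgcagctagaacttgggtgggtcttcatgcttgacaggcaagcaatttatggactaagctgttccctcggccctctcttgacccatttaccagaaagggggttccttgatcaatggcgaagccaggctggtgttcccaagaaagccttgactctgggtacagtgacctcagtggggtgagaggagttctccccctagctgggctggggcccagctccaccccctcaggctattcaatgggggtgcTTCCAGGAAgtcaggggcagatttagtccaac
Serpina3n: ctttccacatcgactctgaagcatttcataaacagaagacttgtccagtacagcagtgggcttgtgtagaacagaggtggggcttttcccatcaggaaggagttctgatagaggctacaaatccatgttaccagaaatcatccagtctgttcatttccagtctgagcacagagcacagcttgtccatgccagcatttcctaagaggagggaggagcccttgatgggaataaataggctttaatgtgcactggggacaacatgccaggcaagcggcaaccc
Socs3 held 1 match, TTCTTAGAA, at positions -154 to -146 from the start, and Gfap held 1, TTCCAGGAA, from -2 to 7, across the start itself. The windows of Stat3 and Serpina3n held none. Of all 32851 promoter windows of the same length, 7.83% held a match. A match therefore describes these letters and does not by itself show binding, which was not examined.

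Values are FPKM, fragment counts scaled for transcript length and library size, so levels can be compared between genes, and the read depth behind them is unknown. All genes of both tables had passed the authors' threshold for 1 or more of their 10 comparisons. The threshold was an adjusted p under 0.05 and a log2 fold change of 1 or more in size. It also required a mean of at least 2 FPKM in the higher of the 2 genotypes compared. Gfap, Socs3, Serpina3n and C4b passed it in 6 comparisons each at P21 and Stat3 in 1, whereas at P2 Gfap passed in 1 and Socs3 in 2. A difference somewhere, and a group mean of 2 FPKM or more, were therefore conditions for being listed. Socs3, Serpina3n and C4b averaged 0.55, 1 and 0.35 FPKM in wild type at P21 and were listed through genotypes where they were higher. Serpina3n and C4b reached a mean of 2 FPKM only in CrxRip/+ and Crx-/-. Every comparison that listed them held 1 of these genotypes, so a high level there was a condition for being listed. Nrl was at 0.1 FPKM in both Nrl-/- samples at P2 (75.2 ± 8.2 in wild type, SD, n = 2) and at 0.2 in both at P21 (447 ± 27.2), where it was also under 1 FPKM in the 4 CrxRip samples. Crx was listed at P21 in every genotype, at 170 ± 2.47 FPKM in the Crx-/- samples and 347 ± 4.81 in those of wild type, and checks neither Crx allele. All P21 genes together summed to 53395.9 and 55335.3 FPKM in wild type, and the sums lay between 21569.4 and 40702 in the mutants. FPKM is a share of a library, so in such bulk samples more cells of a type and more RNA per cell cannot be told apart. Differences below are of log2(FPKM + 1), which understates the fold of genes near 1 FPKM, and a gene was called at a limma p under 0.05 after Benjamini-Hochberg adjustment over the genes of the age's table.

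Stat3 was higher in all 4 mutants at P21, at more than 2 times its wild-type level by mean FPKM. The transcript (NM_213660) was at 8.5 and 9.4 FPKM in the wild-type samples, 21.2 and 28.1 in CrxRip/+, 19.7 and 19.3 in CrxRip/Rip, 20.6 and 19.9 in Crx-/- and 19.8 and 17.9 in Nrl-/-. Every mutant sample lay above both wild-type samples. The ratio of mean FPKM to wild type was 2.75 in CrxRip/+ retinas, 2.18 in CrxRip/Rip retinas, 2.26 in Crx-/- retinas and 2.11 in Nrl-/- retinas. The authors' deposited log2 fold changes were 1.25, 0.9, 0.95 and 0.96 in the same order. By these only CrxRip/+ was more than 2-fold above wild type. On the log2 scale Stat3 rose by 1.35 ± 0.13 (SE) in CrxRip/+ retinas, 1.04 ± 0.13 in CrxRip/Rip retinas, 1.10 ± 0.13 in Crx-/- retinas and 1.00 ± 0.13 in Nrl-/- retinas (adjusted p at most 0.000181). None of the 6 comparisons between mutants was called for Stat3 with all samples. Without CrxRip/+ replicate 1, CrxRip/+ was called above CrxRip/Rip, Crx-/- and Nrl-/- (adjusted p = 0.00969, 0.0121 and 0.00569). The order was Nrl-/-, CrxRip/Rip, Crx-/- and CrxRip/+ from low to high, and the intervals still allow differences: CrxRip/+ minus Nrl-/- was 0.36 (95% interval 0.06 to 0.66, adjusted p = 0.0508), and Crx-/- minus Nrl-/- was 0.10 (-0.20 to 0.40). After rescaling by the median of ratios, CrxRip/+ and CrxRip/Rip were called higher than Nrl-/-, by 0.41 and 0.37.

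Socs3, the inhibitor of the pathway, did not follow Stat3. It was highest in Nrl-/-, intermediate in Crx-/- and lowest in CrxRip/Rip. The samples (NM_007707) were at 0.6 and 0.5 FPKM in wild-type retinas, 0.7 and 2.0 in CrxRip/+, 0.4 and 0.2 in CrxRip/Rip, 2.1 and 1.9 in Crx-/- and 4.5 and 4.0 in Nrl-/-. Both Nrl-/- samples were above every other sample, and both CrxRip/Rip samples were below both wild-type samples. Socs3 rose by 1.76 ± 0.23 in Nrl-/- (adjusted p = 0.000194) and by 0.95 ± 0.23 in Crx-/- (adjusted p = 0.00501). CrxRip/+ differed from wild type by 0.54 ± 0.23 (adjusted p = 0.0624) and CrxRip/Rip by -0.26 ± 0.23 (95% interval -0.79 to 0.28, adjusted p = 0.329), neither called here, while the authors' deposited table gives adjusted p = 0.00124 and 0.0113 for them. The direct comparisons placed CrxRip/Rip below CrxRip/+ (-0.80, adjusted p = 0.0237), below Crx-/- (-1.21, adjusted p = 0.0029) and below Nrl-/- (-2.02, adjusted p = 0.000119). Crx-/- was below Nrl-/- by 0.81 (adjusted p = 0.0151), a call that was lost with a pseudocount of 0.1 (adjusted p = 0.0592) and without either Crx-/- sample or Nrl-/- replicate 1 (0.0532 to 0.0792). In the order of levels CrxRip/Rip and wild type, wild type and CrxRip/+, and CrxRip/+ and Crx-/- were neighbours that were not called apart. Values under 1 FPKM carry a rounding of 0.1, so the ratios of the lowest groups are imprecise.

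Gfap, the filament protein, was higher in every mutant at P21, most in Crx-/- and CrxRip/+. Its samples (NM_010277) were at 4.5 and 3.7 FPKM in wild-type retinas, 15.8 and 21.3 in CrxRip/+, 8.6 and 6.5 in CrxRip/Rip, 26.8 and 24.6 in Crx-/- and 9.6 and 8.7 in Nrl-/-. No 2 genotypes overlapped, although CrxRip/Rip and Nrl-/- nearly touched. Mean Gfap was 6.27 times that of wild type in Crx-/-, 4.52 times in CrxRip/+, 2.23 times in Nrl-/- and 1.84 times in CrxRip/Rip. The rises were 2.39 ± 0.17 (adjusted p = 4.25e-06), 1.93 ± 0.17 (adjusted p = 1.93e-05), 1.00 ± 0.17 (adjusted p = 0.000849) and 0.74 ± 0.17 (adjusted p = 0.00357), in the same order. Retinas with 2 copies of Rip had less Gfap than retinas with 1 copy, by 1.19 (adjusted p = 0.000869), and less than Crx-/- retinas, by 1.65 (adjusted p = 9.60e-05). Nrl-/- was below Crx-/- by 1.40 and below CrxRip/+ by 0.93 (adjusted p = 0.000163 and 0.00254). CrxRip/Rip and Nrl-/- were not called apart (-0.26, 95% interval -0.65 to 0.13), and that difference changed sign after rescaling by the median of ratios (0.05). CrxRip/+ was below Crx-/- by 0.46 (adjusted p = 0.0487), a call that did not hold with a pseudocount of 0.1 (adjusted p = 0.0591), without a variance trend (0.0508), with the replicate number as a block (0.0626), in a fit of these 4 samples alone (0.0878), or without CrxRip/+ replicate 1, Crx-/- replicate 1 or Crx-/- replicate 2 (0.261, 0.202 and 0.106).

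**Figure D1:**
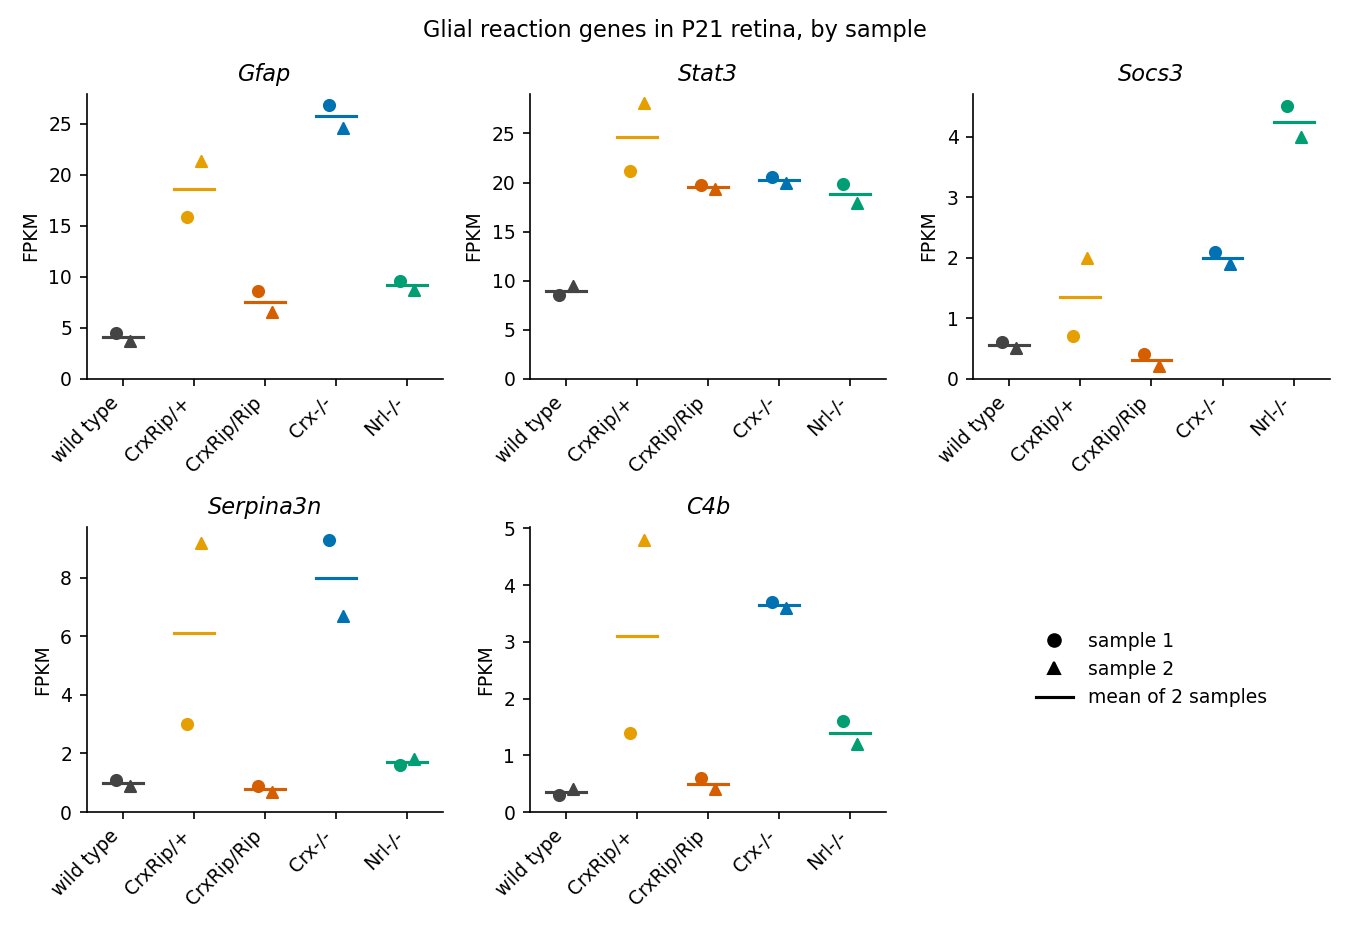
FPKM of the 5 genes in each P21 sample (circle, sample 1; triangle, sample 2; line, mean of 2), by genotype. Stat3 is above 17 FPKM in every mutant sample, Socs3 is highest in Nrl-/-, and Gfap, Serpina3n and C4b are highest in Crx-/- and in CrxRip/+ sample 2.

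The secreted proteins of the group, Serpina3n and C4b, rose in Crx-/- and CrxRip/+ and were not called against wild type in CrxRip/Rip or Nrl-/-. Both genes could be listed only through a high level in Crx-/- or CrxRip/+, so their rises there are not independent of the listing. Serpina3n (NM_009252) was at 1.1 and 0.9 FPKM in wild-type retinas, 3.0 and 9.2 in CrxRip/+, 0.9 and 0.7 in CrxRip/Rip, 9.3 and 6.7 in Crx-/- and 1.6 and 1.8 in Nrl-/-. The Crx-/- and CrxRip/+ samples were all above the other 6 samples, and the CrxRip/Rip samples overlapped wild type. Serpina3n rose by 2.16 ± 0.37 in Crx-/- (adjusted p = 0.000665) and by 1.68 ± 0.37 in CrxRip/+ (adjusted p = 0.00336). It was not called in Nrl-/- (0.43 ± 0.37, 95% interval -0.41 to 1.28, adjusted p = 0.311) or in CrxRip/Rip (-0.15 ± 0.37, -0.997 to 0.69, adjusted p = 0.715). The authors' deposited table calls Nrl-/- higher (adjusted p = 0.0286). CrxRip/Rip was below CrxRip/+ by 1.83 (adjusted p = 0.00454) and below Crx-/- by 2.31 (adjusted p = 0.00105), and Nrl-/- was below Crx-/- by 1.72 (adjusted p = 0.00341). CrxRip/+ minus Nrl-/- was 1.24 (adjusted p = 0.0234), a call that was lost in a fit of these 4 samples alone (0.11) and without either Nrl-/- sample (0.104 and 0.0789). Without CrxRip/+ replicate 2 the difference was 0.57 and called.

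C4b (NM_009780) was at 0.3 and 0.4 FPKM in wild-type retinas, 1.4 and 4.8 in CrxRip/+, 0.6 and 0.4 in CrxRip/Rip, 3.7 and 3.6 in Crx-/- and 1.6 and 1.2 in Nrl-/-. Every sample of CrxRip/+, Crx-/- and Nrl-/- was above all samples of wild type and CrxRip/Rip, and these last genotypes overlapped. The rise was 1.79 ± 0.34 in Crx-/- (adjusted p = 0.00125) and 1.47 ± 0.34 in CrxRip/+ (adjusted p = 0.0044). In Nrl-/- the difference was 0.83 ± 0.34 (adjusted p = 0.0551), which passed the threshold with a pseudocount of 0.1 (1.73, adjusted p = 0.0113), and the authors' deposited table gives adjusted p = 1.28e-66. CrxRip/Rip differed from wild type by 0.15 ± 0.34 (95% interval -0.63 to 0.93, adjusted p = 0.698). C4b in CrxRip/Rip was below CrxRip/+ by 1.32 (adjusted p = 0.0142) and below Crx-/- by 1.64 (adjusted p = 0.00408). Crx-/- was above Nrl-/- by 0.96 (adjusted p = 0.0349), a call that was lost when any 1 of these 4 samples was left out (0.0775 to 0.148). Both genes have near copies: of the 5330 windows of 50 bases in the C4b transcript, 35.2% were identical in its neighbour gene C4a, and 6.9% of those of Serpina3n were found in 7 other genes, while Gfap, Stat3 and Socs3 shared none (GENCODE M21). How the authors assigned reads shared with C4a is not given in the sources used here, so the C4b level is uncertain to that extent.

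Read by genotype, all 5 genes were called higher in Crx-/- and fewer were called in the other mutants. In Crx-/- all 5 rose, in a P21 table of which 81.3% was called in that comparison. CrxRip/+ had 4 higher and 1 uncalled (Socs3; 74.5% of the table called), Nrl-/- 3 higher and 2 uncalled (Serpina3n and C4b; 72.2%), and CrxRip/Rip 2 higher, Gfap and Stat3, and 3 uncalled (80.6%). These counts of calls lie near the shares of the table called in Crx-/-, CrxRip/+ and Nrl-/-, and nothing particular to the 5 genes is read from them. By direction, 591 of the 1497 genes were called higher in CrxRip/+ retinas, 544 in CrxRip/Rip retinas, 596 in Crx-/- retinas and 605 in Nrl-/- retinas. None of the 5 was called lower than wild type in any mutant. For Socs3, Serpina3n and C4b this carries no weight. Their wild-type means were 0.55, 1 and 0.35 FPKM, so a fall from wild type could not list them and had little room. The authors' deposited values place Socs3 lower in CrxRip/Rip (log2 fold change -1.17, adjusted p = 0.0113). The uncalled genes of CrxRip/+ and Nrl-/- had estimates above 0. These were 0.54 for Socs3 in CrxRip/+ (adjusted p = 0.0624), and 0.43 for Serpina3n and 0.83 for C4b in Nrl-/- (0.311 and 0.0551). In a fit of wild type and Nrl-/- alone all 5 were called (Serpina3n 0.011, C4b 0.00295). The median difference from wild type over the 5 genes was 1.79 in Crx-/-, 1.47 in CrxRip/+, 1.00 in Nrl-/- and 0.15 in CrxRip/Rip, beside -0.04, 0.13, 0.17 and -0.14 over all genes of the table. CrxRip/Rip had the fewest of these 5 called, 2 higher, while most of its table calls were falls (663 lower, 544 higher). Its 2 of 5 is near the share of the 1497 genes called higher, so nothing particular to the 5 genes is read from it either. These comparisons share the wild-type samples, and the counts were read from genes already selected for a difference.

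**Figure D2:**
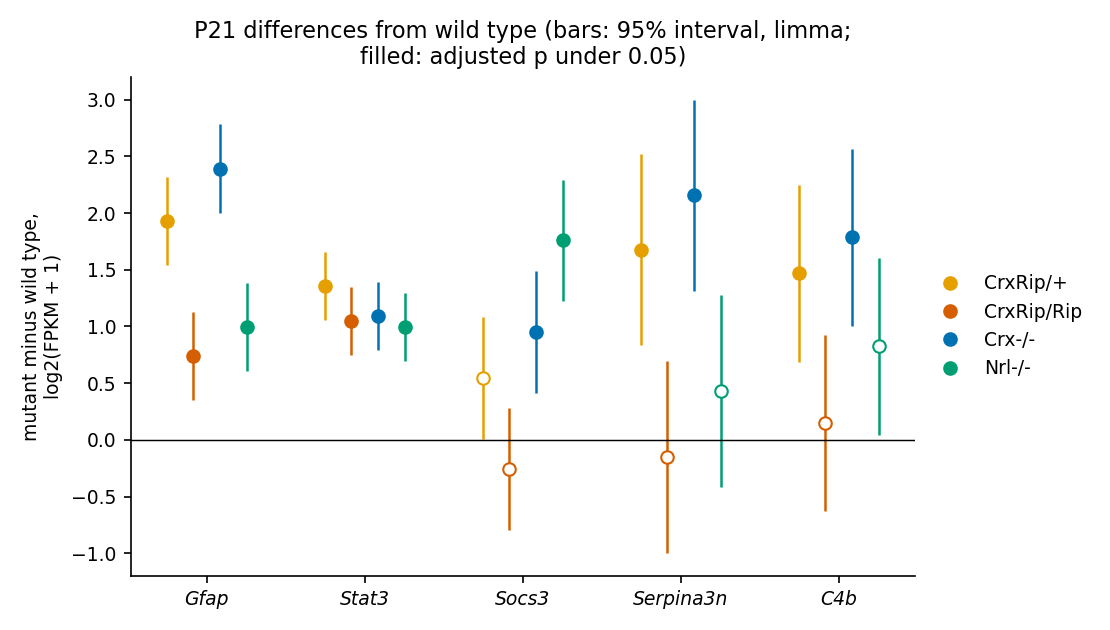
Difference of each mutant from wild type in log2(FPKM + 1) for the 5 genes at P21; points are limma estimates, bars their 95% intervals, filled points called. Stat3 is called in all 4 mutants, whereas the CrxRip/Rip points of Socs3, Serpina3n and C4b lie between -0.26 and 0.15.

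The comparisons between mutants carry no wild-type samples and test the differences between genotypes directly. CrxRip/Rip was lower than CrxRip/+ in 4 of the 5 genes and lower than Crx-/- in the same 4, Gfap, Socs3, Serpina3n and C4b, with Stat3 uncalled in both (47% and 53.4% of the table called). CrxRip/Rip minus Nrl-/- was called for Socs3 alone, lower (66.8%), and in a fit of these 4 samples also for Serpina3n and C4b, lower (0.0131 and 0.0181). Crx-/- exceeded Nrl-/- in Gfap, Serpina3n and C4b and was lower in Socs3 (65.1%). CrxRip/+ exceeded Nrl-/- in Gfap and Serpina3n and was lower in Socs3 (48.8%). CrxRip/+ and Crx-/- were called apart in Gfap alone (52.6%). Without CrxRip/+ replicate 2, Socs3, Serpina3n and C4b were also called lower in CrxRip/+ than in Crx-/- (-0.82, -1.15 and -0.95, adjusted p = 0.00289, 0.00228 and 0.00195), and without CrxRip/+ replicate 1 they were at 0.00, 0.20 and 0.32, not called. C4b in CrxRip/+ minus Nrl-/- was called, higher, without CrxRip/+ replicate 1 (1.28, adjusted p = 0.000649), and was at 0.01 without replicate 2. With only the 4 samples of CrxRip/Rip and CrxRip/+ in the fit, Gfap kept its call and Socs3, Serpina3n and C4b had adjusted p = 0.158, 0.0852 and 0.135. Socs3 also lost its call without CrxRip/+ replicate 2 (-0.39, 0.0613) or CrxRip/Rip replicate 2 (0.0872), and C4b without CrxRip/Rip replicate 2 (0.0517).

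The 2 CrxRip/+ samples of P21 stood apart from each other in these genes. Sample 2 was 3.43 times sample 1 in C4b, 3.07 times in Serpina3n, 2.86 times in Socs3, 1.35 times in Gfap and 1.33 times in Stat3. Of 1409 genes with a mean of at least 1 FPKM in CrxRip/+, 2.77% were at least 2-fold higher in sample 2 and 1.77% at least 2-fold lower. Rises in CrxRip/+ were read again with either sample alone. Without CrxRip/+ replicate 2 Serpina3n was 1.00 and C4b 0.83 above wild type, and without replicate 1 they were 2.35 and 2.10 above it; both stayed called in each case. In a fit of wild type and CrxRip/+ alone they were not (adjusted p = 0.0503 and 0.06). Socs3 differed by 0.13 without replicate 2 and by 0.95, then called, without replicate 1. The markers of microglia in the table, described below, summed to 12.3 FPKM in sample 1 and 22.5 in sample 2; their part in the result was not tested.

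At P2 the picture was narrower: Socs3 was lower in both CrxRip genotypes, and Gfap varied as much within genotypes as between them. Socs3 was at 2.6 and 2.8 FPKM in wild-type retinas, 1.7 and 1.5 in CrxRip/+, 1.9 and 1.2 in CrxRip/Rip, 2.4 and 2.5 in Crx-/- and 3.2 and 2.9 in Nrl-/-. The 4 CrxRip samples lay below the other 6. Socs3 fell by 0.51 ± 0.13 in CrxRip/+ (adjusted p = 0.0301) and by 0.55 ± 0.13 in CrxRip/Rip (adjusted p = 0.0127). Crx-/- and Nrl-/- differed from wild type by -0.10 ± 0.13 (95% interval -0.40 to 0.20) and 0.13 ± 0.13 (-0.17 to 0.43) and were not called, but after rescaling by the median of ratios Nrl-/- was called higher (0.92) and Crx-/- turned to 0.03. The fall in CrxRip/+ was not called in any of the 4 fits that left out 1 of its or the wild-type samples (adjusted p 0.0736 to 0.159), and the fall in CrxRip/Rip lost its call without wild-type replicate 2 (adjusted p = 0.0755) and in a fit of the 4 samples alone (0.123). Both CrxRip genotypes were below Nrl-/- (-0.64 and -0.68, adjusted p = 0.00168 and 0.00116) and below Crx-/- (-0.41 and -0.45, adjusted p = 0.048 and 0.026). The call of CrxRip/+ against Crx-/- was lost with a pseudocount of 0.1 (0.0581), with the filter at 2 FPKM (0.0514), without a variance trend (0.0516) and whichever of the 4 samples was left out (0.102 to 0.192). That of CrxRip/Rip against Crx-/- was lost in a fit of the 4 samples alone (0.119) and without CrxRip/Rip replicate 2, Crx-/- replicate 1 or Crx-/- replicate 2 (0.0785 to 0.117). The CrxRip genotypes were not called apart (-0.04, 95% interval -0.34 to 0.26).

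Gfap at P2 was at 10.1 and 4.9 FPKM in wild-type retinas, 6.7 and 12.3 in CrxRip/+, 6.4 and 3.7 in CrxRip/Rip, 6.5 and 14.8 in Crx-/- and 5.3 and 10.7 in Nrl-/-. The samples of a genotype differed 1.73-fold to 2.28-fold, and all genotypes overlapped wild type. No comparison of Gfap was called at P2 on the deposited scale; the largest difference was CrxRip/Rip minus Crx-/- at -0.88 ± 0.50 (95% interval -2.03 to 0.26, adjusted p = 0.182), and against wild type the differences ran from -0.46 to 0.43 with adjusted p of 0.517 to 0.873. After rescaling by the median of ratios CrxRip/Rip was called below Nrl-/- in Gfap (-1.34, adjusted p = 0.04). The authors' deposited table calls 6 of its 10 comparisons for Gfap at P2, with adjusted p = 1.36e-16 for CrxRip/Rip against Crx-/-. Against wild type 1 of the 2 genes was called in CrxRip/+ and in CrxRip/Rip (16.4% and 27% of the 566 genes called) and 0 of 2 in Crx-/- and Nrl-/- (29.9% and 83.6%). Among mutants 1 of 2 was called in CrxRip/+ minus Crx-/- (28.6%), CrxRip/Rip minus Crx-/- (41.3%), CrxRip/+ minus Nrl-/- (85.7%) and CrxRip/Rip minus Nrl-/- (89.2%), Socs3 each time, and 0 of 2 in CrxRip/Rip minus CrxRip/+ (14.1%) and Crx-/- minus Nrl-/- (78.8%). Socs3 in Crx-/- minus Nrl-/- was called, lower, after rescaling (-0.89, adjusted p = 0.000149) and in a fit of the 4 samples alone (-0.23, 0.0465). P2 and P21 values were scaled apart from each other, and ages were not tested against each other.

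**Figure D3:**
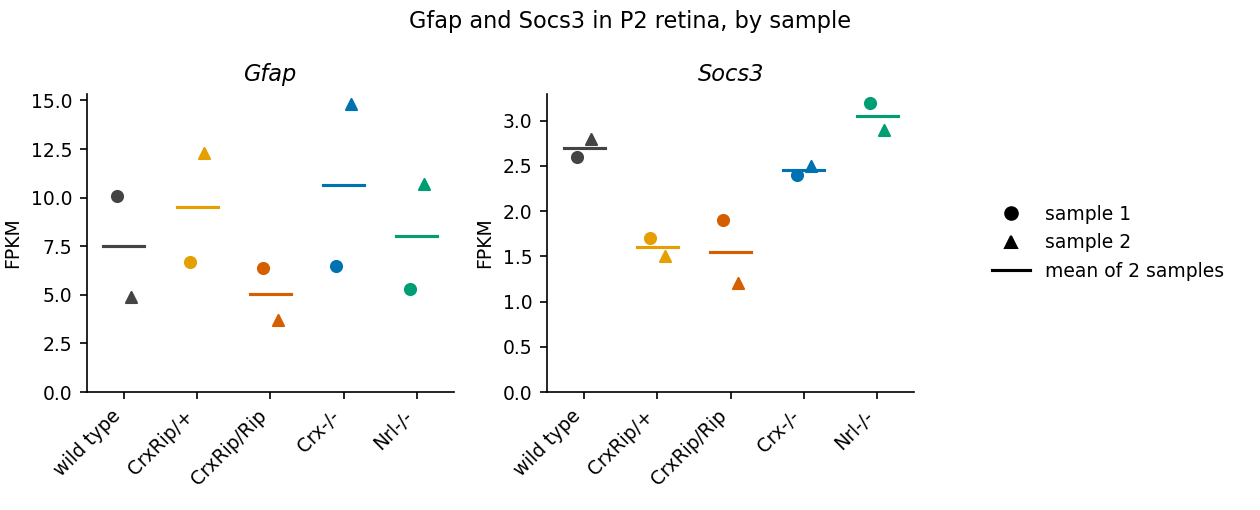
FPKM of Gfap and Socs3 in each P2 sample (circle, sample 1; triangle, sample 2; line, mean of 2), by genotype. The 4 CrxRip samples of Socs3 are the lowest at 1.2 to 1.9 FPKM, and the Gfap samples of 1 genotype spread as widely as the genotypes.

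Of the route to STAT3, 3 of 14 listed cytokines and receptors of the gp130 family were in the P21 table. All 3 rose in CrxRip/+ and Crx-/- while none was called in CrxRip/Rip. Of all table genes, 74.5%, 80.6%, 81.3% and 72.2% were called in CrxRip/+, CrxRip/Rip, Crx-/- and Nrl-/-, in either direction. With so few genes, the calls in CrxRip/+ and Crx-/- are not set apart from these shares. The medians of the 3 were 0.34, 0.12, 0.90 and 0.57, beside 0.13, -0.14, -0.04 and 0.17 over all genes. Osmr, the oncostatin M receptor, was at 1.05 ± 0.071 FPKM in wild-type retinas, 3.75 ± 1.6 in CrxRip/+ retinas, 2.05 ± 0.78 in CrxRip/Rip retinas, 4.15 ± 0.64 in Crx-/- retinas and 2.05 ± 0.071 in Nrl-/- retinas (differences 1.17, 0.55, 1.32 and 0.57, called in CrxRip/+ and Crx-/-). Cntf, ciliary neurotrophic factor, a cytokine that protects photoreceptors, rose by 0.34 in CrxRip/+, 0.57 in Crx-/- and 0.79 in Nrl-/-. Lifr, the leukemia inhibitory factor receptor, rose by 0.26 and 0.90 in CrxRip/+ and Crx-/- and fell by 0.73 in Nrl-/-, the genotype with the highest Socs3. Of 10 listed JAK kinases and other STAT factors 0 were in the table. Of 12 other inhibitors of the pathway 2 were present, and both fell in CrxRip/+, CrxRip/Rip and Crx-/- and were not called in Nrl-/-: Pias3, the protein inhibitor of activated STAT3 (-0.52, -1.34, -0.63 and -0.10), and Cish, a relative of Socs3 (-0.46, -0.41, -0.64 and -0.08).

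Known STAT3 targets were represented by 2 of 16 genes. Fos, an immediate early gene, rose in all 4 mutants, by 0.93 in CrxRip/+ retinas, 0.40 in CrxRip/Rip retinas, 1.74 in Crx-/- retinas and 0.69 in Nrl-/- retinas. A2m, alpha-2-macroglobulin, a secreted protease inhibitor, rose by 1.43 and 1.87 in CrxRip/+ and Crx-/- and was not called in CrxRip/Rip (0.44) or Nrl-/- (0.77). Of 38 other genes of reactive glia 8 were present. CrxRip/+ had 6 higher, CrxRip/Rip 2, Crx-/- 7 and Nrl-/- 2, none was lower, and the medians were 0.85, 0.51, 1.35 and 0.57, beside 0.13, -0.14, -0.04 and 0.17 over all genes, of which 74.5%, 80.6%, 81.3% and 72.2% were called in either direction. Serping1, the C1 inhibitor, was at 2.05 ± 0.071 FPKM in wild-type retinas, 5.5 ± 3.4 in CrxRip/+ retinas, 3.1 ± 0.28 in CrxRip/Rip retinas, 12.4 ± 1.8 in Crx-/- retinas and 4.2 ± 0.14 in Nrl-/- retinas (differences 0.99, 0.43, 2.13 and 0.77, all called but CrxRip/Rip). S100a6, a calcium-binding protein, rose by 1.31 in CrxRip/+ and 1.48 in Crx-/-. Fkbp5, a glucocorticoid-induced chaperone, and Anxa2, annexin A2, were the 2 called in CrxRip/Rip (0.70 and 0.57).

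In the complement system, to which C4b belongs, 5 of 22 listed genes were in the table, Serping1 among them. C1qa and C1qc, 2 chains of C1q, rose in CrxRip/+ (0.81 and 0.82) and Crx-/- (0.65 and 0.83), and were at -0.16 and -0.09 in CrxRip/Rip and 0.40 and 0.49 in Nrl-/-, not called. Cd59a, which blocks the membrane attack complex, fell by 0.63 in both CrxRip/Rip and Crx-/-. Over the list CrxRip/+ had 3 higher, CrxRip/Rip 1 lower, Crx-/- 3 higher and 1 lower and Nrl-/- 2 higher. The medians were 0.81, -0.09, 0.65 and 0.49, beside the same medians and the same shares called over all genes. None of the 10 listed members of the Serpina3 family other than Serpina3n was in either table.

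**Figure D4:**
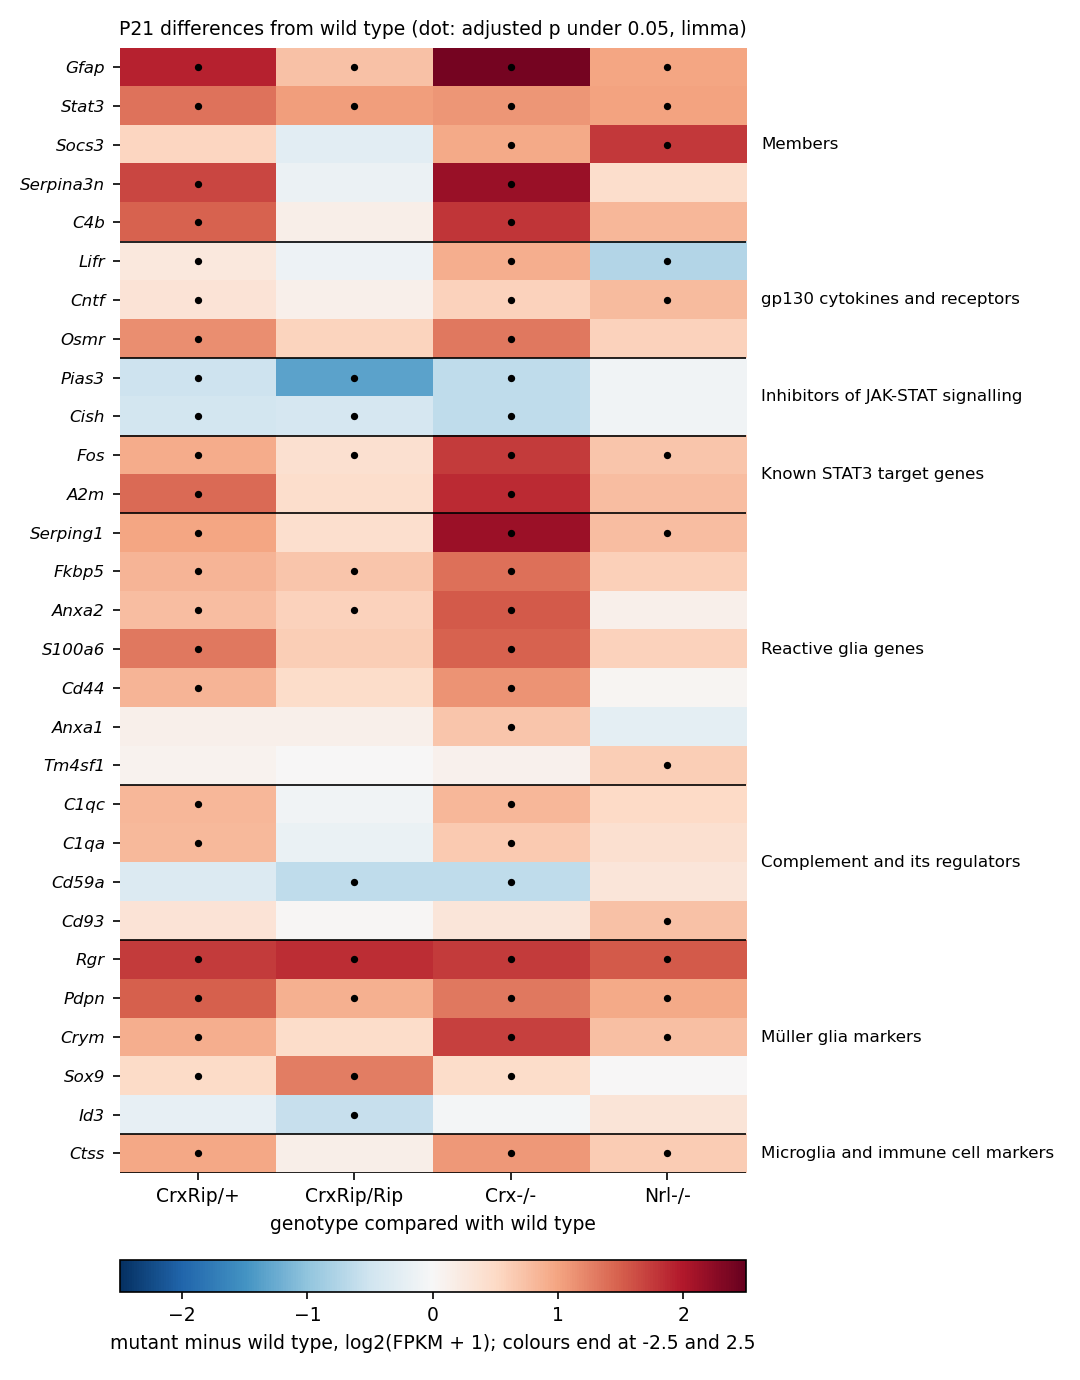
Differences of each mutant from wild type in log2(FPKM + 1) at P21 for the 5 genes and the genes present from the gp130, inhibitor, STAT3 target, reactive glia, complement, Müller cell and microglia lists (colour scale from -2.5 to 2.5; dots mark calls; a gene on 2 lists is drawn once). The CrxRip/Rip column is pale in Socs3, Serpina3n, C4b, C1qa and C1qc and coloured in Gfap, Stat3, Rgr and Pdpn.

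Some markers of the cells that could hold these transcripts moved as well. Of 20 Müller cell markers 5 were in the table, and their summed level was 45.8 to 49.7 FPKM in wild-type retinas, 95.9 to 109 in CrxRip/+ retinas, 72.4 to 90.3 in CrxRip/Rip retinas, 115.1 to 139.6 in Crx-/- retinas and 83.5 to 87.6 in Nrl-/- retinas. Crym (19.65 FPKM in wild type, 66.5 in Crx-/-) and Pdpn (13 and 34.05) made up most of this sum. The 5 were listed because they differed somewhere, and the other Müller cell markers were not analysed. The sum therefore does not stand for Müller cell transcripts in general, and the same limit holds for the microglia and pigment epithelium sums. CrxRip/+ and Crx-/- had 4 of 5 higher, CrxRip/Rip 3 higher and 1 lower and Nrl-/- 3 higher. These calls are near the 74.5%, 81.3%, 80.6% and 72.2% of the table called in these genotypes, a background for the other markers too. The medians were 0.92, 1.32, 0.88 and 0.75, beside 0.13, -0.04, -0.14 and 0.17 over all genes. Pdpn, podoplanin, a membrane glycoprotein, rose by 1.49, 0.88, 1.32 and 0.94 in CrxRip/+, CrxRip/Rip, Crx-/- and Nrl-/-. Sox9, a glial transcription factor, was highest in CrxRip/Rip (6.85 ± 0.78 FPKM against 2.25 ± 0.21 in wild type). The 3 microglia markers present of 24 listed, Ctss (cathepsin S), C1qa and C1qc, summed to 7.7 to 7.8 FPKM in wild-type retinas, 12.3 to 22.5 in CrxRip/+ retinas, 6.9 to 8.6 in CrxRip/Rip retinas, 15.3 to 18.7 in Crx-/- retinas and 10.5 to 14.7 in Nrl-/- retinas, and all 3 rose in CrxRip/+ and Crx-/- while none was called in CrxRip/Rip. Gja1, connexin 43, the single astrocyte marker of 8, rose in CrxRip/+, Crx-/- and Nrl-/- (0.76, 1.07 and 1.05). Vascular markers (4 of 13 present) had 1 higher in each mutant, Kdr in CrxRip/+, CrxRip/Rip and Crx-/- (1.27, 1.28 and 1.11) and Cdh5 in Nrl-/- (0.47), with Cldn5 and Pecam1 lower in CrxRip/Rip and Cldn5 lower in Crx-/-. Pigment epithelium markers (6 of 12) summed to 8.8 to 17.5 FPKM in wild type and 31.5 to 69 in the mutants. Rgr, counted above as a Müller cell marker, spread between samples much as the pigment epithelium marker Rpe65 did. Rgr was at 2.0 and 5.6 FPKM in wild type and 19.2 and 10.2 in Crx-/-, and Rpe65 at 0.5 and 1.1 and at 5.9 and 2.8. The cell source of Rgr was not tested. Of the markers of these 5 lists that were in the table none was at 0 in any P21 group, and their part in the rise of the 5 genes was not tested.

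Rod transcripts were lowest in CrxRip/Rip, and the other mutants were ordered differently by rod sum than by Gfap, Serpina3n and C4b. All 16 rod markers fell in each mutant at P21, with medians of -4.21 in CrxRip/+ retinas, -5.19 in CrxRip/Rip retinas, -2.24 in Crx-/- retinas and -4.06 in Nrl-/- retinas. Their summed level was 20694.5 to 22089.5 FPKM in wild-type retinas, 1259.2 to 1371.5 in CrxRip/+ retinas, 697.1 to 708.5 in CrxRip/Rip retinas, 1843.8 to 2103.7 in Crx-/- retinas and 2163.8 to 2242.6 in Nrl-/- retinas. CrxRip/Rip had the lowest rod sum of the 4 mutants and the lowest mean Gfap, Socs3, Serpina3n and C4b of the 4. Nrl-/- had the highest rod sum of the mutants, with mean Gfap, Serpina3n and C4b of 9.15, 1.7 and 1.4 FPKM. CrxRip/+ had a lower rod sum and higher means of these genes (18.55, 6.1 and 3.1 FPKM). Mean Socs3 had the same order of mutants as the rod sum. A relation of rod loss to the 5 genes was not tested.

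Over the 10 samples of P21 the genes were compared by Pearson's r of log2(FPKM + 1), given as a description because the points share genotypes and libraries. Serpina3n and C4b were the closest pair (r = 0.96), followed by Gfap with C4b (0.93) and with Serpina3n (0.92). Stat3 had r = 0.78 with Gfap, 0.70 with C4b and 0.58 with Serpina3n, and Socs3 had r of 0.37 to 0.59 with the other 4. Among all 1497 genes the 3 most like Gfap were Pcolce (0.97), Adamts1 (0.97) and A2m (0.96), which encode an enhancer of collagen processing, an extracellular metalloprotease and the protease inhibitor named above. For Serpina3n they were C4b (0.96), A2m (0.96) and Parp3 (0.94), and for C4b they were Ctss (0.97), A2m (0.97) and Serpina3n (0.96). Stat3 was most like Rerg (0.98), Mrgpre (0.97) and Pdlim3 (0.96). Socs3 was most like Fam19a3 (0.97), Map6 (0.96) and Abi3 (0.95), none of which was among the 3 nearest to another of the 5. At P2 Gfap and Socs3 had r = 0.19.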

How the data were processed

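RNA-seq of whole retina was measured in 20 samples. The authors deposited FPKM per sample, written to 1 decimal, with their mean FPKM, log2 fold changes and adjusted p-values for 10 comparisons at each age. DESeq is named in the submitters' processing notes, its version not stated. For the aligner, counter, genome build and annotation, each is not given in the sources used; depth is unknown.

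From the deposited FPKM, log2(FPKM + 1) was fitted for each age over its 10 samples with 5 genotype terms (limma 3.58.1 in R 4.3.3, variance trend, empirical Bayes, two-sided), and p-values were adjusted over all 566 or 1497 genes in each of 10 comparisons. The fit had 5 residual degrees of freedom. With 2 samples against 2, an exact permutation test cannot go below 0.33. No filter on low values was applied beyond the authors' threshold. The steps were tested on simulated data.

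The members and 15 gene lists were chosen with earlier results of these data known. Of each list, up to 4 genes were named, those called in the most P21 comparisons with wild type, ties by the larger change; for each of the 5 genes, the 3 with the highest Pearson's r over the P21 samples were named. The labels do not say that samples of a genotype come from separate litters, so p-values measure the spread between these samples, which may be technical. Alternatives were a pseudocount of 0.1, a mean of at least 2 FPKM, median-of-ratios rescaling, only the genotypes compared, no variance trend, the replicate number as a block, and leaving out each sample. Promoters come from RefSeq GRCm38.p6 and shared 50-base windows from GENCODE M21 transcripts.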

Additional observations from a re-analysis of the deposited data

Results flagged for a closer look

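Socs3 in CrxRip/+ differed from wild type by 0.54 on the log2(FPKM + 1) scale at P21 and by -0.51 at P2, with both samples above wild type at the later age and both below it at the earlier one. Socs3 in Crx-/- differed by 0.95 at P21 and by -0.10 at P2, again with both samples on opposite sides of wild type at the 2 ages. In limma the P21 difference of CrxRip/+ was not called (adjusted p = 0.0624), and its sample 1 was at 0.7 FPKM beside 0.6 in wild-type sample 1. The P2 difference of Crx-/- was not called (adjusted p = 0.55) and was 0.03 after rescaling. A switch between ages is therefore not shown. The difference between ages was not tested, because P2 and P21 values were scaled apart from each other.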

How the results depend on the processing

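At P21, 107 of 112 values of mutants against wild type kept their direction and side of the threshold under the alternatives that kept all samples of a comparison, 2 were weaker and 3 stronger; of 80 values with 1 sample left out, 79 did. The other values moved more when 1 sample was left out: at P2 21 of 32 against wild type were kept (5 weaker, 6 reversed) and 33 of 48 between mutants (7 weaker, 8 reversed), and at P21 94 of 120 between mutants (15 weaker, 7 stronger, 4 reversed). Under the alternatives that kept all samples of a comparison, 45 of 48 and 63 of 72 were kept at P2 and 152 of 168 between mutants at P21. With only the 2 genotypes compared, Serpina3n and C4b in CrxRip/+ were 1.68 and 1.47 and not called (2 genes called), Serpina3n and C4b in Nrl-/- were 0.43 and 0.83 and called (5 called), and Socs3 in CrxRip/Rip at P2 was -0.55 and not called (0 called). With a pseudocount of 0.1 C4b in Nrl-/- was 1.73 and called. The mean of at least 2 FPKM removed Socs3 and C4b at P21, which left 3 genes called in Crx-/-.

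Rescaling by the median of ratios moved the median of all genes at P2 by 0.15 in Crx-/- and 0.69 in Nrl-/- against wild type, by -0.10 between CrxRip/+ and Crx-/- and by -0.57 to -0.65 in mutants against Nrl-/-; at P21 it moved it by 0.14 in CrxRip/Rip against wild type and by 0.12 to 0.28 in CrxRip/Rip against the other mutants and Crx-/- against Nrl-/-. Under it Socs3 at P2 was 0.03 in Crx-/- and 0.92, called, in Nrl-/- (1 gene called), Gfap at P2 was -0.63 in CrxRip/+ minus Nrl-/- and -0.41 in Crx-/- minus Nrl-/- and -1.34, called, in CrxRip/Rip minus Nrl-/-, Stat3 at P21 was 0.11 in CrxRip/Rip minus Crx-/- and Gfap 0.05 in CrxRip/Rip minus Nrl-/-.

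With 1 sample left out, Gfap at P2 ran from -0.13 to 0.78 in CrxRip/+, -0.11 to 0.97 in Crx-/- and -0.37 to 0.54 in Nrl-/- against wild type, and from -0.64 to 0.43 in CrxRip/+ minus Crx-/-, -0.21 to 0.68 in CrxRip/+ minus Nrl-/- and -0.20 to 0.88 in Crx-/- minus Nrl-/-. Socs3 at P2 ran from -0.57 to -0.45 in CrxRip/+ (0 to 0 genes called), -0.75 to -0.35 in CrxRip/Rip (0 to 1 called) and -0.24 to 0.16 between them. At P21 Socs3 ran from 0.13 to 0.95 in CrxRip/+ against wild type; CrxRip/+ minus Crx-/- ran from -0.82 to 0.00 for Socs3, -1.15 to 0.20 for Serpina3n and -0.95 to 0.32 for C4b, and CrxRip/Rip minus Nrl-/- from -0.02 to 0.12 for Stat3. The cause of these changes was not tested.

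Deviations of samples with the same replicate number had correlations of -0.24 to 0.33 at P2 and -0.30 to 0.24 at P21 over 10 genotype pairs. The labels do not say whether the numbers pair samples, and these correlations cannot settle it. With the replicate block the call of Gfap in CrxRip/+ minus Crx-/- (-0.46) was lost, which left 0 of the 5 genes called there; no other call of the 5 genes changed under the block.

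Genes called over the table changed by more than 1.5 times under rescaling at P2, from 473 to 296 in Nrl-/- against wild type, 485 to 321 in CrxRip/+ minus Nrl-/- and 446 to 269 in Crx-/- minus Nrl-/-. With only the 2 genotypes compared they fell from 80 to 43 and from 234 to 133 at P2 in CrxRip/Rip minus CrxRip/+ and minus Crx-/-, and from 703 to 279 at P21 in CrxRip/Rip minus CrxRip/+. With 1 sample left out at P2 they fell from 93 to 55 in CrxRip/+ against wild type (without wild-type replicate 2), from 169 to between 72 and 92 in Crx-/- against wild type, from 162 to between 78 and 93 in CrxRip/+ minus Crx-/-, from 80 to 51 in CrxRip/Rip minus CrxRip/+ (without CrxRip/+ replicate 2) and from 234 to 136 in CrxRip/Rip minus Crx-/- (without Crx-/- replicate 2).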

Other observations

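Genes of the stress response of retina and glia, of which 7 of 10 listed were in the P21 table, did not share 1 order of genotypes. Cdkn1a, Mt1, Mt2 and Hmox1 had their highest mean in Crx-/-, Atf3 and Fgf2 in CrxRip/+ and Ednrb in Nrl-/-. Cdkn1a, which encodes the cell cycle inhibitor p21, rose in all 4 mutants, from 0.9 FPKM in both wild-type samples to 2.7 and 4.6 in CrxRip/+, 5.0 and 4.1 in CrxRip/Rip, 11.3 and 10.4 in Crx-/- and 3.8 and 1.5 in Nrl-/- (differences 1.26, 1.54, 2.64 and 0.87 in limma). The metallothioneins Mt1 and Mt2, which bind zinc and copper, rose in CrxRip/+ (0.64 and 1.08) and Crx-/- (1.27 and 2.25) and were not called in CrxRip/Rip (0.25 and 0.57) or Nrl-/- (0.32 and 0.41). Mt2 was at 11.2 and 30.4 FPKM in the CrxRip/+ samples, with sample 2 the higher, as for Serpina3n and C4b. Atf3, a stress-induced transcription factor, rose in CrxRip/+ (0.58) and fell by 0.55 in Nrl-/-. Over the list CrxRip/+ had 4 higher, CrxRip/Rip 1, Crx-/- 4 and Nrl-/- 2 higher and 1 lower. Of all table genes, 74.5%, 80.6%, 81.3% and 72.2% were called in these genotypes, in either direction.

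Of 9 other intermediate filament genes listed, 2 were in the table, and they moved in opposite directions. Synm, which encodes synemin, a filament protein of muscle and glia, fell in all 4 mutants, by 0.73, 0.71, 0.69 and 0.78 in CrxRip/+, CrxRip/Rip, Crx-/- and Nrl-/-, and was at 4.9 and 5.5 FPKM in wild type against 2.4 to 3.1 in the mutant samples. Prph, peripherin of neurons, rose in CrxRip/Rip (0.26) and Crx-/- (0.76) and was at 0.23 in CrxRip/+ and 0.14 in Nrl-/-, not called.

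At P2 metallothioneins were highest in Nrl-/-; the genes named for this age were chosen after their values were seen. Mt2 was at 0.7 and 0.8 FPKM in wild type and 4.5 and 4.8 in Nrl-/- (1.69, called), and Mt1 rose there by 0.94. Of the gp130 family Il11ra1, an interleukin 11 receptor chain, rose in CrxRip/Rip (1.36) and Cntfr, the ciliary neurotrophic factor receptor, fell in Crx-/- and Nrl-/- (-0.83 and -1.33). Socs5, a relative of Socs3, fell in the same genotypes (-0.31 and -1.04). The median over all P2 genes was -0.14 in Crx-/- and -0.76 in Nrl-/-, so falls in Nrl-/- were common to much of the table.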
